A study of Caenorhabditis elegans with 9 samples.

Results

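Cuticle collagen genes of Caenorhabditis elegans were followed through RNA of oocyte P-bodies, whole oocytes and whole animals. The genes were taken by name: every gene whose symbol in the deposited tables begins with col- and a number was a member, which gave 159 of 46778 genes. Of these, 156 were annotated as protein coding and 3 as pseudogenes, col-66, col-136 and col-182. All animals were female and, per the labels, carried a mutation in fog-2, with CAR-1 tagged by GFP and PGL-1 tagged by RFP. The labels give the stage both as L4 and as oocyte arrest, and the time as day 3. Each of the 3 groups had 3 libraries, and nothing in the labels places replicates in separate cultures or animals, so the p-values cover the spread of these libraries alone, and that spread may be technical. Whole animals were extracted as they were, oocytes were taken by dissection, and P-bodies were sorted, by FAPS in the wording of the labels. The promoters that drive the tags are not given in the sources used here.

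Cuticle collagens are short secreted collagens made mainly by the hypodermis, the epidermis that underlies the worm's exoskeleton. Their transcription rises and falls with each molt, different members serve larval and adult cuticles, and the chains are hydroxylated, trimmed and cross-linked before they join the cuticle. P-bodies are cytoplasmic assemblies of RNA and proteins such as CAR-1, and in arrested oocytes they hold repressed maternal messages. A worm that lacks fog-2 function makes no self sperm and is therefore female, and without males its oocytes wait in the gonad. In bulk libraries such as these, fewer cells of a type and less RNA per cell cannot be told apart.

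Library totals ran from 27946955 to 78685226 counts. Ribosomal RNA genes took 91.6% ± 0.153 (SD, n = 3) of the counts in whole animals, 88% ± 1.06 in oocytes and 33.4% ± 4.2 in P-bodies. Counts of protein-coding genes therefore lay between 3226465 and 5129627 in whole animals, between 3566621 and 7905996 in oocytes and between 45262531 and 54937023 in P-bodies. Levels below are CPM, counts relative to the library's size, scaled with TMM factors, which set the typical gene equal between libraries. The factors lay between 0.399 and 0.425 in whole animals, between 0.576 and 0.719 in oocytes and between 3.64 and 3.81 in P-bodies. Scaling to library totals alone moved the median log2 difference of all 10162 tested genes from -0.06 to 2.44 for P-bodies against oocytes, from 0.00 to 0.68 for oocytes against whole animals and from -0.18 to 3.00 for P-bodies against whole animals. Differences are given relative to the typical gene, and the value by library totals stands beside them where its direction differs. The oocyte marker list of 10 genes summed to between 2490 and 2890 CPM in whole animals, between 3040 and 3590 CPM in oocytes and between 3470 and 3730 CPM in P-bodies, with no gene of the list at 0 in any group.

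Messages of the col genes were detected in all 3 groups. At least 10 counts in every library of the group were found for 32 members in whole animals, 20 in oocytes and 30 in P-bodies. A mean level of at least 1 TPM (a level per transcript length) was reached by 41 members in whole animals, 21 in oocytes and 29 in P-bodies. All 20 members measured in the oocytes were also measured in both other groups. Depth sets part of these counts: with protein-coding counts thinned to 3226465 in every library, 32 members reached 10 counts in every library in whole animals, 19 in oocytes and 11 in P-bodies. No count at all was seen for 33 members in whole animals, 65 in oocytes and 26 in P-bodies, and for 10 members in any of the 9 libraries. A gene at 0 in all 3 libraries could still lie at up to 0.0441 CPM in whole animals, 0.0319 CPM in oocytes and 0.0036 CPM in P-bodies, the level of 3 counts over the group. These limits cover counting error only.

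Whole animals held the most col message. The summed level of all members was 1260, 1070 and 833 CPM in whole-animal libraries 1, 2 and 3. It was 396, 105 and 62.1 CPM in oocyte libraries 1, 2 and 3, and 48.9, 41.3 and 22.3 CPM in P-body libraries 1, 2 and 3. No whole-animal library reached down to any oocyte library, and no oocyte library reached down to any P-body library. The mean in whole animals was 28.1-fold that of P-bodies and 5.62-fold that of oocytes, and the mean in oocytes was 5-fold that of P-bodies. Oocyte library 1 decided the last 2 folds: without it, whole animals stood 12.6-fold over oocytes and oocytes 2.22-fold over P-bodies. The highest library exceeded the lowest 6.37-fold among oocytes, 2.19-fold among P-bodies and 1.52-fold among whole animals.

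**Figure D1:**
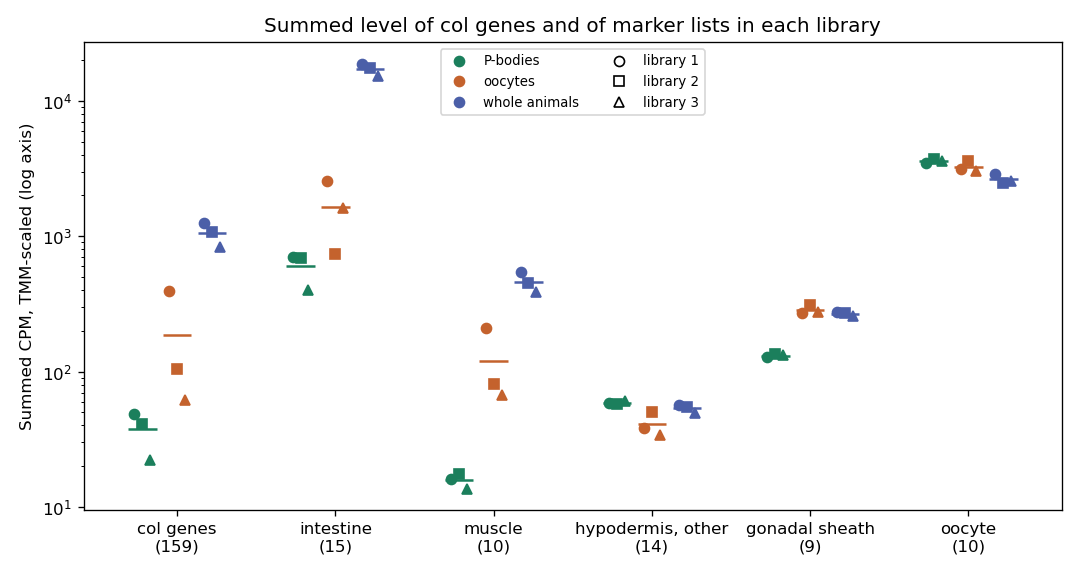
Summed level of the col genes and of 5 marker lists in each library, in TMM-scaled CPM on a log axis, with 1 point per library, its shape giving the library number, and a line at each group mean. The col points lie between 833 and 1260 in whole animals, 62.1 and 396 in oocytes and 22.3 and 48.9 in P-bodies; as shares of all counts the oocyte and P-body groups overlap.

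As a share of protein-coding counts the col genes took 0.576% ± 0.0982 (SD, n = 3) in whole animals, 0.11% ± 0.105 in oocytes and 0.0213% ± 0.00831 in P-bodies. By the share of all counts, ribosomal RNA included, the means were 0.043% ± 0.0076, 0.0115% ± 0.00992 and 0.014% ± 0.00493, and oocytes and P-bodies no longer kept the same order. The 95% Wilson interval of the share of protein-coding counts was 0.226% to 0.235% in oocyte library 1, 0.0565% to 0.0615% in library 2 and 0.0385% to 0.0412% in library 3. The differences between the 3 oocyte libraries were thus larger than counting error.

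In sum, the muscle markers stood in the same order as the col level across the oocyte libraries. The single marker unc-54 did not, at 78.5, 22.1 and 23.4 CPM in oocyte libraries 1, 2 and 3. The 10 muscle markers, led by the myosin heavy chain gene unc-54, summed to 210, 80.9 and 66.7 CPM in oocyte libraries 1, 2 and 3, between 389 and 542 CPM in whole animals and between 13.6 and 17.6 CPM in P-bodies, with none of them at 0 in a group. The 15 intestine markers, mostly vitellogenin (yolk) genes and gut enzymes, summed to 2570, 741 and 1610 CPM in oocyte libraries 1, 2 and 3. They lay between 15300 and 18800 CPM in whole animals and between 403 and 704 CPM in P-bodies, with end-3 at 0 in oocytes and whole animals. For each 100 muscle marker counts there were 302, 234 and 164 col counts in P-body libraries 1, 2 and 3, 189, 129 and 93.2 in the oocyte libraries, and 233, 235 and 214 in the whole-animal libraries. For each 100 intestine marker counts there were 6.94, 6.02 and 5.54 col counts in the P-body libraries, 15.4, 14.1 and 3.86 in the oocyte libraries, and 6.71, 6.14 and 5.44 in the whole-animal libraries. The P-body and whole-animal ratios overlapped for both lists.

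Markers of the hypodermis other than collagens did not differ in sum as the col genes did. The 14 of 15 hypodermis markers found in the tables summed to between 57.1 and 60.6 CPM in P-bodies, between 33.9 and 50 CPM in oocytes and between 49 and 56.5 CPM in whole animals. The list held genes also used outside the hypodermis, only 6 of the 14 passed the filter on low counts, and sta-2, rdy-2 and grd-10 were at 0 in oocytes and rdy-2 in P-bodies. Of the 6, 3 were called lower and 1 higher in P-bodies than in whole animals, with a median log2 difference of -0.69, or 2.49 by library totals. Of all genes, 38.9% were called lower and 27.9% higher in that comparison. The 9 sheath and spermatheca markers in the tables summed to between 272 and 309 CPM in oocytes, between 256 and 277 CPM in whole animals and between 127 and 134 CPM in P-bodies, with sth-1 at 0 in P-bodies. The 10 neuron markers summed to between 25.1 and 34.8 CPM in oocytes, where rab-3 was at 0, between 42 and 47 CPM in whole animals and between 39.3 and 47.9 CPM in P-bodies. Of the 9 neuron markers tested, 6 were called lower and 1 higher in P-bodies than in whole animals, with a median of -3.57. The shares of all genes were the same 38.9% and 27.9%. In oocytes 5 neuron markers were called lower than in whole animals, with a median of -3.13, where 12.5% of all genes were. The part of any of these cell types in the col levels was not tested.

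A few members made up most of the col message, and largely the same ones in every group. The 10 members with the highest TPM in whole animals were col-106, col-101, col-181, col-122, col-184, col-143, col-119, col-95, col-140 and col-80. They held 79.9% ± 3.91 (SD, n = 3) of the col counts in whole animals, 74.4% ± 11.4 in oocytes and 72.5% ± 4.45 in P-bodies. The spread in oocytes came from library 2, at 61.4%, against 82.8% in library 1 and 79% in library 3. The make-up can be compared without any scaling of libraries, as the sum over members of the smaller of 2 libraries' shares. By that measure P-body and whole-animal libraries shared between 83.1% and 89.3% of their col make-up, against 86.1% to 90.3% among P-body libraries and 90.4% to 94.6% among whole-animal libraries. Oocyte libraries shared 66.7% to 84.8% among themselves, 72.9% to 87.3% with whole animals and 73.8% to 83.2% with P-bodies. These shares come from the same 9 libraries and are a description.

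**Figure D2:**
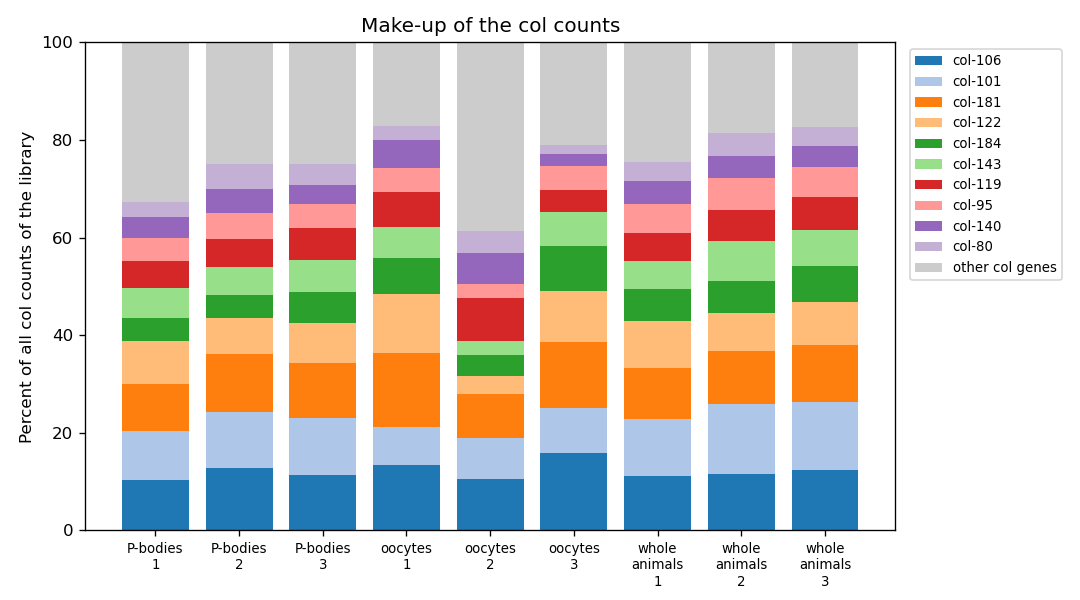
Percent of each library's col counts taken by each of the 10 members with the highest TPM in whole animals (colours) and by all other members (grey), 1 bar per library. The 10 members together took 75.4% to 82.7% in whole animals, 61.4% to 82.8% in oocytes and 67.4% to 75.2% in P-bodies.

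Col-101 and col-106 led the family. The gene col-106 (WBGene00000680, chromosome IV, 1459866 to 1460786, WBcel235) stood at 126 TPM ± 23.9 (SD, n = 3) in whole animals, 34.3 ± 27.9 in oocytes and 34.4 ± 12.7 in P-bodies. The gene col-101 (WBGene00000675, chromosome IV, 325437 to 326711) stood at 131, 126 and 98.8 TPM in whole-animal libraries 1, 2 and 3, at 18.2 ± 12.5 (SD, n = 3) in oocytes and at 27.6 ± 8.77 in P-bodies. It overlaps drl-1 on the opposite strand, so its counts are uncertain. The deposited TPM values are scaled over all genes of a library, ribosomal RNA included, and in TPM the P-bodies stand higher against the other groups than in TMM-scaled CPM.

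In CPM, col-106 was at 142, 123 and 103 in whole-animal libraries 1, 2 and 3, at 53.1, 11 and 9.83 in the oocyte libraries, and at 5.08, 5.25 and 2.53 in the P-body libraries. The gene col-101 was at 146, 153 and 117 CPM in whole animals, 30.5, 8.91 and 5.80 in oocytes, and 4.92, 4.76 and 2.64 in P-bodies. The gene col-181 on chromosome X was at 133, 116 and 97.0 CPM in whole animals, 60.2, 9.41 and 8.35 in oocytes, and 4.70, 4.89 and 2.49 in P-bodies. For all 3 genes the groups did not overlap, oocyte library 1 was the highest oocyte library and P-body library 3 the lowest of all.

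**Figure D3:**
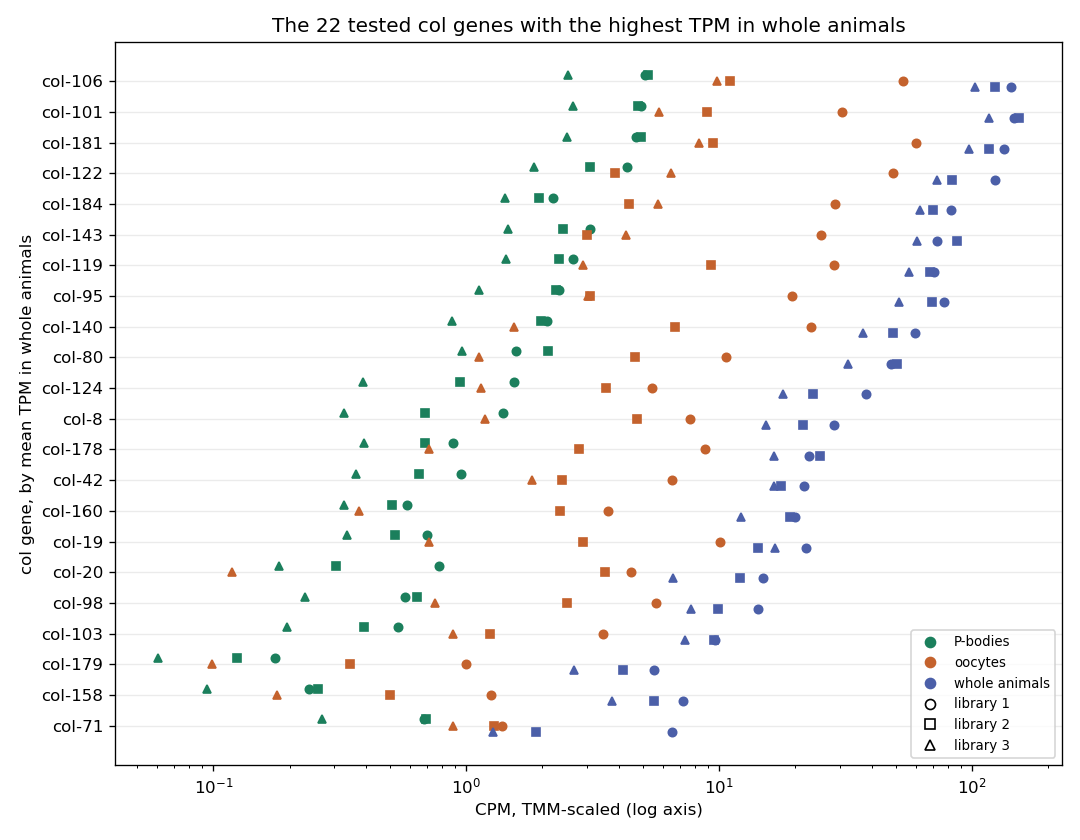
Level of the 22 tested col genes with the highest TPM in whole animals, in TMM-scaled CPM on a log axis, with 1 point per library, coloured by group and shaped by library number. For col-106 the points run from 2.53 in a P-body library to 142 in a whole-animal library, and for col-20 the oocyte point of library 3 lies below every P-body point; by library totals the difference of col-106 between P-bodies and oocytes changes sign, at 0.09 (log2).

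Members used as markers of particular stages had low or no counts. The adult cuticle collagen gene col-19 (WBGene00000608, chromosome X, 421707 to 423033) was the exception: it was at 22.1, 14.2 and 16.6 CPM in whole animals, 10.1, 2.89 and 0.71 in oocytes, and 0.70, 0.521 and 0.336 in P-bodies. The groups did not overlap, but oocyte library 3 nearly touched P-body library 1, and the gene overlaps ZK1193.2 on the opposite strand, which makes it uncertain. The other adult gene on the list, col-7, had 2, 1 and 1 counts in the whole-animal libraries and none elsewhere. The gene col-10 had 5, 5 and 1 counts in whole animals, 0, 1 and 0 in oocytes and 11, 3 and 1 in P-bodies. For col-12 the counts were 10, 0 and 0 in P-bodies and 11, 0 and 0 in whole animals, with none in oocytes, and for its neighbour col-13 they were 5, 0 and 0 and 1, 0 and 0. The gene col-34 had 24, 11 and 2 counts in whole animals, 0, 0 and 1 in oocytes and 1, 8 and 2 in P-bodies. For col-120 the counts in the same order were 9, 4 and 2, then 1, 1 and 1, then 14, 1 and 2. None of these 6 genes passed the filter on low counts, so no difference between groups could be tested for them.

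The filter on low counts left 57 of the 159 members, and a member could pass through a single group where it was high. Of the 102 that did not pass, 92 had at least 1 count. Their highest count in any library was 54, and they held between 0.295% and 6.18% of a library's col counts. Unless another setting is named, counts of called members below are over the 57. They use edgeR's quasi-likelihood test with Benjamini-Hochberg adjustment over all 10162 genes, at an adjusted p under 0.05. Other filters or left-out libraries changed the number of members tested, which was 60 to 76 with single libraries left out. No share over all genes is given for counts at an unadjusted p. The 3 comparisons share libraries, so each is described by its own values.

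Oocytes held less col message than whole animals for 12 tested members, and none was called higher in oocytes. The 12 are 21.1% of the tested members, where 12.5% of all genes were called lower and 0.709% higher. By library totals 28 members were called lower and 1 higher, against 11.8% and 51.9% of all genes. At an unadjusted p under 0.05, 37 members were lower and none higher. DESeq2 called 31 lower and none higher, where 1540 and 379 of all 10162 genes were. With limma on log2(TPM + 1), 26 were called lower and none higher, where 1404 and 4202 of all genes were. The median log2 difference of the members was -2.68, against 0.00 for all genes, and 41 members had all oocyte libraries below all whole-animal libraries, where 21.4% of all genes did, and none had them above, where 7.83% did. The 12 called members lay below 0 by library totals as well, between -7.22 and -1.42 (log2), and 8 of them overlap another protein-coding gene.

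Among abundant members, col-101 fell by 3.22 on the log2 scale from whole animals to oocytes (SE 0.66, adjusted p = 0.0225). The gene col-42 on chromosome V, which overlaps no other coding gene, was at 21.7, 17.6 and 16.4 CPM in whole animals and 6.52, 2.39 and 1.82 in oocytes. It had a log2 difference of -2.40 ± 0.53 (SE, adjusted p = 0.0214). The gene col-80, which overlaps dph-2, was at 47.9, 50.2 and 32.2 CPM in whole animals and 10.6, 4.63 and 1.12 in oocytes, with a log2 difference of -3.05 ± 0.75 (SE, adjusted p = 0.0441). For each of these, all oocyte libraries lay below all whole-animal libraries. The smallest adjusted p was that of col-158, which overlaps nphp-4, at -3.18 ± 0.63 (SE, adjusted p = 0.00661). On chromosome V, col-159 and col-160 overlap each other on the same strand, so reads of the pair may be split between them, and both were called lower, col-160 at -3.10 ± 0.70 (SE, adjusted p = 0.0273). The gene col-124, which overlaps qns-1, had -3.03 ± 0.72 (SE, adjusted p = 0.0375).

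The member with the highest TPM, col-106, had a log2 difference of -2.32 ± 0.72 (SE) that missed the threshold with an adjusted p of 0.0946, as did col-181 with -2.16 and an adjusted p of 0.155. The adult gene col-19 had -1.99 ± 0.84 (SE, adjusted p = 0.197). Single libraries decided the count of 12 called members: it was 26 without oocyte library 1, 4 without oocyte library 2, 7 without oocyte library 3, 3 without whole-animal library 1 and 4 without whole-animal library 2. The call of col-158 held with each library left out. That of col-101 was lost without oocyte library 2 (-2.97) or any whole-animal library (-3.18, -3.14 and -3.33), and that of col-42 without oocyte library 2 (-2.21) or whole-animal library 1 (-2.27) or 2 (-2.43). The calls of col-80, col-124 and col-160 were lost without 5 or more different libraries each, with log2 differences between -3.25 and -2.55.

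Some tested members with low levels in whole animals had no count in the oocyte libraries. Their pooled whole-animal levels lay between 0.412 CPM for col-63 and 1.94 CPM for col-73. Over the pooled libraries, col-73 was at least 60.8-fold, col-49 at least 35.5-fold, col-77 at least 34.5-fold and col-138 at least 31.3-fold lower in oocytes than in whole animals. The same bound was 23.5-fold for col-144, 22.6-fold for col-175, 18.4-fold for col-17 and 12.9-fold for col-63. Whole-animal library 1 carried these bounds: without it they were 19.3-fold for col-73, 14.7-fold for col-49 and col-138, 10.7-fold for col-77, 10-fold for col-144 and col-17, 8.67-fold for col-175 and 5.33-fold for col-63. Whole-animal library 3 had no count of col-49 or col-63, so for both the oocyte and whole-animal groups overlapped. Without library 1 their bounds came from library 2 alone. In library 3 col-77 had 1 count and col-138 had 2. Of these 8 members, col-175 alone was called. All 8 had counts in P-bodies, but mostly in library 1, with 118, 8 and 1 for col-73, 69, 16 and 0 for col-49 and 82, 31 and 0 for col-138. Over all 3 P-body libraries these genes lay at least 4.77-fold, 3.2-fold and 4.25-fold above the oocytes, while without library 1 col-138, at 1.72-fold, and col-175, at 1.55-fold, alone among the 8 lay above the oocyte limit. These values without library 1 were added after the data were seen. None of these 8 was called between P-bodies and oocytes, and their names, apart from col-17 and col-144, were picked after their values were seen.

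P-bodies held less col message than oocytes relative to the typical gene, but this direction depended on the scaling. Of the 57 tested members, 18 were called lower in P-bodies and none higher, while by library totals 11 were called higher and none lower. The 18 are 31.6% of the tested members, close to the 28.8% of all genes called lower, and 26.7% of all genes were called higher. By library totals 79.6% of all genes were called higher and 3.35% lower, against 19.3% of the members called higher. The median log2 difference of the members was -1.70 and that of all genes -0.06, and by library totals they were 0.78 and 2.44. At an unadjusted p under 0.05, 23 members were lower and none higher. DESeq2 called 25 lower and 1 higher, where 3186 and 2749 of all 10162 genes were. With limma on log2(TPM + 1), 7 members, or 12.3%, were called higher and none lower. Of all 10162 genes, 7987 were called higher and 270 lower by limma. All P-body libraries lay below all oocyte libraries for 13 members and above for 4, where 27.6% and 32.5% of all genes did.

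Among the 18, col-42 was at 0.954, 0.648 and 0.366 CPM in P-bodies, below each of its oocyte libraries, with a log2 difference of -2.41 ± 0.53 (SE, adjusted p = 0.00562), or 0.14 by library totals. The gene col-106 had -2.51 ± 0.73 (SE, adjusted p = 0.0248), or 0.09 by library totals, and col-101 had -1.86 ± 0.63 (SE, adjusted p = 0.0436), or 0.73 by library totals. The gene col-184 had -2.79 ± 0.73 (SE, adjusted p = 0.0166) and -0.18 by library totals. The gene col-19 had -3.09 ± 0.88 (SE, adjusted p = 0.0225) and -0.51 by library totals. Against the typical gene all 5 were lower in P-bodies in every library. Against library totals col-42, col-106 and col-101 lay above 0, while col-184 and col-19 stayed below 0. The genes col-119 (adjusted p = 0.0264), col-181 (adjusted p = 0.0318), col-178 (adjusted p = 0.0351), col-160 (adjusted p = 0.0392), col-140 (adjusted p = 0.0475) and col-158 (adjusted p = 0.0493) were also called, with log2 differences between -2.68 and -1.60. By library totals col-158 was at 0.93 and col-160 at 0.44. The genes col-122, at -2.65 ± 0.97 (SE, adjusted p = 0.0555), col-143, at -2.21 ± 0.81 (SE, adjusted p = 0.0572), and col-95, at -2.12 ± 0.78 (SE, adjusted p = 0.0574), missed the threshold. By library totals col-143 was at 0.40 and col-95 at 0.48.

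Of the 18 called members, 10 lay above 0 by library totals and 9 overlap another protein-coding gene. The count also turned on single libraries: it was 28 without oocyte library 3, 9 without oocyte library 1, and 11, 7 and 5 without P-body library 1, 2 and 3. The call of col-42 held with each library left out. That of col-106 was lost without any P-body library (-2.64, -2.68 and -2.24), that of col-184 without P-body library 2 (-2.81) or 3 (-2.62), and that of col-19 without any P-body library (-3.36, -3.08 and -2.85) or oocyte library 1 (-1.59). The call of col-101 was lost without any single library other than oocyte library 3, at -0.79 without oocyte library 1, and the other 6 named calls were each lost without 3 or more different libraries. The muscle list moved likewise, with 8 of 10 tested genes called lower in P-bodies than in oocytes and a median of -2.84, and the intestine list had 9 of 14 and a median of -1.43, or 1.13 by library totals. The sheath and spermatheca list had 6 of 7 lower and a median of -2.17, or 0.31 by library totals. The hypodermis list had 2 of 6 lower and 1 higher, and the neuron list 1 of 9 lower and 1 higher. Of all genes, 28.8% were called lower and 26.7% higher in this comparison. The part of any of these lists in the result was not tested.

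P-bodies held less col message than whole animals for 41 of the 57 tested members, and none was called higher. The 41 are 71.9% of the tested members, where 38.9% of all genes were called lower and 27.9% higher. By library totals 19 members were called lower and 8 higher, or 33.3% and 14%, against 9.73% and 76.6% of all genes. Of the 41, 38 lay below 0 by library totals as well, and 17 overlap another protein-coding gene. At an unadjusted p under 0.05, 44 members were lower and none higher. DESeq2 called 42 lower and none higher, where 3930 and 2988 of all 10162 genes were. With limma on log2(TPM + 1), 26 were called lower and 7 higher, where 1322 and 7743 of all genes were. The median log2 difference of the members was -4.60, against -0.18 for all genes, and by library totals -1.43 against 3.00. All P-body libraries lay below all whole-animal libraries for 40 members and above for 1, where 42.8% and 33.8% of all genes did.

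The well-measured members had similar differences, while the tested members as a whole ranged more widely, from -5.74 to 1.99. Of the 24 members with at least 10 counts in every P-body and whole-animal library, 21 had log2 differences between -5.26 and -4.46. The band from -5.4 to -4.4, drawn after these values were seen, held 30 of the 57 tested members, with 2 below it and 25 above it. The largest of the 24 was that of col-184, at 82.7, 69.7 and 62.0 CPM in whole animals and 2.21, 1.94 and 1.42 in P-bodies, with a log2 difference of -5.26 ± 0.79 (SE, adjusted p = 0.000981). The gene col-101 had -5.08 ± 0.70 (SE, adjusted p = 0.00062), col-160 had -5.16 ± 0.72 (SE, adjusted p = 0.000447) and col-95 had -5.11 ± 0.84 (SE, adjusted p = 0.00156). The gene col-106 had -4.84 ± 0.80 (SE, adjusted p = 0.00153), col-42 had -4.82 ± 0.56 (SE, adjusted p = 0.000115) and col-19 had -5.08 ± 0.93 (SE, adjusted p = 0.00228). All of these genes stayed below 0 by library totals, between -2.07 for col-184 and -1.63 for col-42. Further called members included col-143 at -4.99, col-178 at -5.02, col-122 at -4.91, col-181 at -4.84, col-119 at -4.93, col-140 at -4.88 and col-80 at -4.80.

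The smallest adjusted p, 4.31e-05, was that of col-103, which overlaps gst-40, at -4.54 ± 0.54 (SE). Of the low members set on the list by name, col-17 was called with -4.01 ± 1.31 (SE, adjusted p = 0.0204) from 25, 12 and 3 counts in whole animals and 26, 6 and 0 in P-bodies. The gene col-144 was called with -4.68 ± 1.74 (SE, adjusted p = 0.0444) from 36, 12 and 3 counts and 25, 0 and 0. Both calls were lost without P-body library 2 or without whole-animal library 1 or 2, at -3.68, -3.20 and -3.97 for col-17 and -4.08, -3.53 and -4.79 for col-144. The call of col-144 was also lost without P-body library 3, at -4.10. The muscle list had 10 of 10 tested genes called lower in P-bodies than in whole animals with a median of -4.94, and the intestine list 14 of 14 with a median of -4.88. The sheath and spermatheca list had 7 of 7 with a median of -3.21, where 38.9% of all genes were called lower. The part of these lists in the result was not tested.

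**Figure D4:**
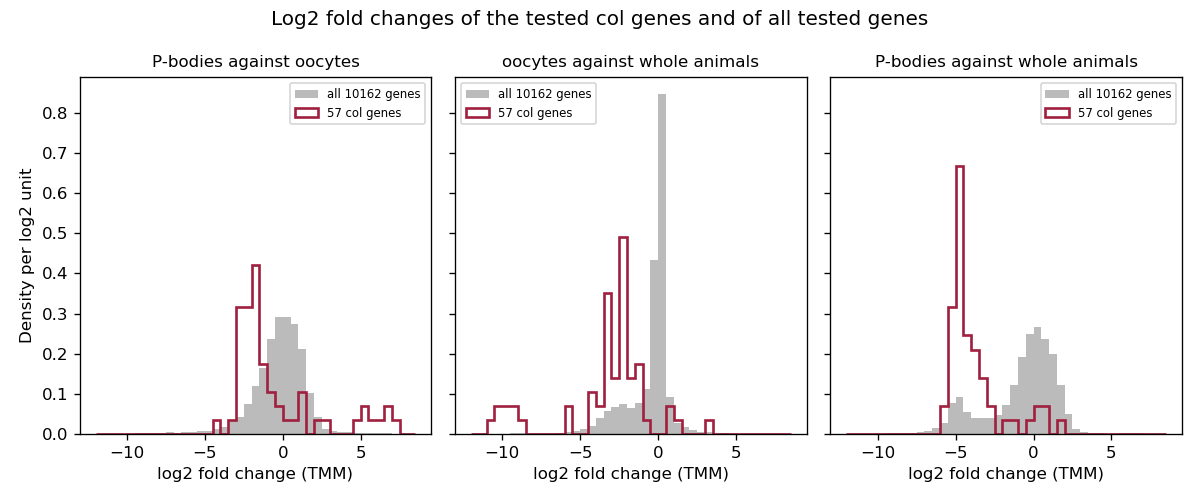
Distribution of the log2 differences of the 57 tested col genes (red outline) and of all 10162 tested genes (grey) in the 3 comparisons, as density per log2 unit, relative to the typical gene. Member medians are -1.70, -2.68 and -4.60 against -0.06, 0.00 and -0.18 for all genes, and the first turns to 0.78 by library totals; the outlying bins of both comparisons with oocytes hold members at 0 in the oocytes, whose fitted values depend on the prior count.

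The gene col-99 encodes a transmembrane collagen rather than a cuticle component (WBGene00000674, chromosome IV, 138346 to 147919). It has 18 exons, the most of any member, and overlaps daf-1 on the opposite strand, so its counts are uncertain. It had 10, 8 and 9 counts in whole animals, 7, 2 and 7 in oocytes and 102, 113 and 88 in P-bodies. On the CPM scale it was at 0.476, 0.445 and 0.311 in whole animals, 0.302, 0.0995 and 0.138 in oocytes and 0.38, 0.377 and 0.332 in P-bodies, where the P-body and whole-animal ranges overlap. The log2 difference was 1.03 ± 0.59 (SE, adjusted p = 0.154) for P-bodies against oocytes, -1.19 ± 0.63 (SE, adjusted p = 0.261) for oocytes against whole animals and -0.16 ± 0.55 (SE, adjusted p = 0.809) for P-bodies against whole animals, or 3.01 by library totals. Its share of the col counts, which needs no scaling, was 0.0377%, 0.0417% and 0.0373% in whole animals, 0.0764%, 0.0951% and 0.222% in oocytes and 0.777%, 0.914% and 1.49% in P-bodies. All P-body shares lay above all others, as they also did for col-68 and col-132. The col sum in CPM was lowest in P-bodies, so a member that differs less than the sum gains share there.

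Among the 24 members measured in every P-body and whole-animal library, col-38, col-71 and col-76 were those outside the band, and they were named after their values were seen, as was col-68. The gene col-38 was at 3.86, 0.945 and 0.863 CPM in whole animals and 0.574, 0.624 and 0.415 in P-bodies. The gene col-71 was at 6.52, 1.89 and 1.28 CPM in whole animals and 0.678, 0.695 and 0.268 in P-bodies. In both genes whole-animal library 1 stood well above the other whole-animal libraries. Their log2 differences were -1.80 ± 0.55 (SE, adjusted p = 0.0112) and -2.55 ± 0.59 (SE, adjusted p = 0.00209), or 1.40 and 0.65 by library totals, and that of col-76 was -3.87 ± 0.62 (SE, adjusted p = 0.000121). The gene col-68 was at 0.294, 0.147 and 0.313 CPM in P-bodies and 0.333, 0.0556 and 0.138 in whole animals, with overlapping groups and a log2 difference of 0.51 ± 0.87 (SE, adjusted p = 0.625).

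The members measured in every P-body library but not in every whole-animal library were col-46, col-53, col-64, col-68, col-99 and col-132. Those measured in every whole-animal library but not in every P-body library were col-93, col-135, col-139, col-142, col-150, col-159, col-166 and col-183. Depth sets part of these lists, since protein-coding counts averaged 49154365 in P-bodies and 4118594 in whole animals. No member was called higher in P-bodies than in whole animals, and col-53 had a lower mean there, 0.0996 against 0.229 CPM. The genes col-46, col-53, col-64 and col-99 overlap another protein-coding gene, so their counts are uncertain. Members outside the 32 measured in whole animals held 10.8%, 6.14% and 7.26% of the col counts in P-body libraries 1, 2 and 3. They held 0.862%, 9.23% and 3.91% in the oocyte libraries, and 5.45%, 1.63% and 0.9% in the whole-animal libraries.

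**Figure D5:**
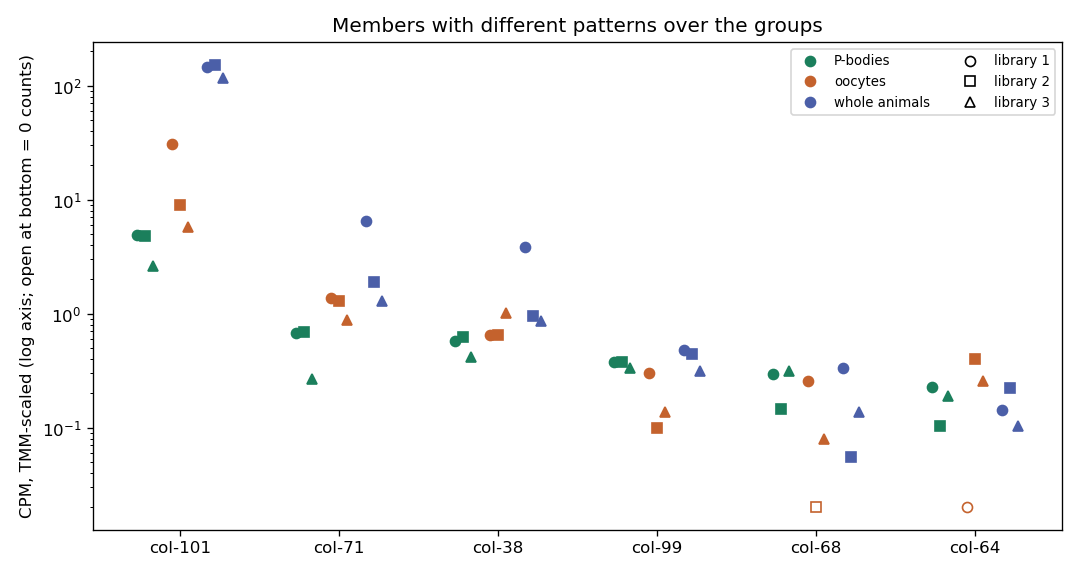
Level of 6 members in each library, in TMM-scaled CPM on a log axis, coloured by group and shaped by library number, with open symbols at the bottom for 0 counts. The whole-animal points of col-101 lie between 117 and 153 and its P-body points between 2.64 and 4.92, while for col-99 the ranges 0.311 to 0.476 and 0.332 to 0.38 overlap; by library totals col-99 is higher in P-bodies by 3.01 (log2).

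In P-bodies and whole animals, library 1 had the most members with at least 10 counts. The number of members with at least 10 counts was 67, 49 and 36 in P-body libraries 1, 2 and 3, 71, 41 and 36 in the whole-animal libraries and 29, 28 and 25 in the oocyte libraries. With at least 1 count the oocyte libraries had 54, 71 and 56 members, the fewest in library 1. Library 1 was the highest of its group for 50 of the 57 tested members in whole animals, for 39 in P-bodies and for 32 in oocytes. No share over all genes is given for this, nor for the single-library numbers below. Neither can thus be called particular to col genes. In whole animals 27 members reached 10 counts in library 1 alone, against 0 in library 2 alone and 1 in library 3 alone. In P-bodies the numbers were 26, 4 and 0. The whole-animal set and the P-body set had 13 members in common, 48.1% of the first and 50% of the second: col-12, col-14, col-39, col-41, col-48, col-63, col-90, col-104, col-110, col-133, col-145, col-161 and col-162. Without both of these libraries, a setting added after the data were seen, 52 members were tested. Called lower were 6 for P-bodies against oocytes and 1 for oocytes against whole animals, where 2404 and 662 of 10367 genes were. For P-bodies against whole animals 32 were called lower, where 3446 of 10367 genes were. The labels give no batch and do not say whether a number marks a shared preparation.

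Genes that work with the col genes did not all behave like them. Of 20 cuticle collagen genes with other names, such as the dumpy, roller and blister genes that shape the body, 10 were tested. Against whole animals 2 were called lower in oocytes and 7 in P-bodies, with 1 higher in P-bodies, where 12.5%, 38.9% and 27.9% of all genes were. No count in oocytes was seen for 9 of the 20. The roller gene rol-8 had 28, 7 and 13 counts and the blister gene bli-6 54, 19 and 1 in the whole-animal libraries, and neither had any in oocytes. The dumpy gene dpy-17 was at 2.68, 4.43 and 0.71 CPM in oocytes, 1.76, 1.22 and 1.14 in whole animals and 0.391, 0.504 and 0.457 in P-bodies. It was called lower in P-bodies than in oocytes, with a log2 difference of -2.50 ± 0.53 (SE, adjusted p = 0.00148), or -0.01 by library totals. For dpy-14 the oocytes ranged from 0.0789 to 3.58 CPM and overlapped both other groups.

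The basement membrane collagens, which line tissues rather than the body surface, were all called. The type IV chain gene let-2 was at 177, 124 and 109 CPM in whole animals, 72.2, 57.7 and 41.7 in oocytes and 5.16, 5.26 and 4.12 in P-bodies. The groups did not overlap, with a log2 difference of -1.26 ± 0.23 (SE, adjusted p = 0.00567) for oocytes against whole animals and -3.56 ± 0.25 (SE, adjusted p = 1.18e-06) for P-bodies against oocytes. Its partner emb-9 had -4.75 ± 0.22 (SE, adjusted p = 1.52e-08) for P-bodies against whole animals. The gene cle-1, a collagen of the type XV and XVIII kind that overlaps cdk-8, was called higher in oocytes than in whole animals, by 0.73 ± 0.18 (SE, adjusted p = 0.019).

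Of 21 genes for enzymes that modify collagen and assemble cuticle, 14 were tested. P-bodies had 6 lower and 1 higher than oocytes, where 28.8% of all genes were lower and 26.7% higher. P-bodies had 11 lower than whole animals and oocytes 5, where 38.9% and 12.5% of all genes were lower. By library totals the list's medians were 1.09 for P-bodies against oocytes and 1.05 for P-bodies against whole animals, where the values relative to the typical gene were -1.38 and -2.14. The prolyl hydroxylase gene phy-2 was called lower in oocytes than in whole animals, at -2.42 ± 0.58 (SE, adjusted p = 0.0148), while dpy-18, which encodes the other catalytic subunit, had -0.41 ± 0.25 (SE, adjusted p = 0.353), or 0.24 by library totals. The gene dpy-18 was called higher in P-bodies than in oocytes, at 0.71 ± 0.24 (SE, adjusted p = 0.0248). The dual oxidase gene bli-3, which cross-links cuticle proteins and overlaps F53G12.18, was lower in oocytes than in whole animals, at -1.93 ± 0.35 (SE, adjusted p = 0.00289). The lysyl hydroxylase gene let-268 was lower in P-bodies than in oocytes, at -3.39 ± 0.70 (SE, adjusted p = 0.00125), and the peroxidase gene skpo-1 at -5.30 ± 0.31 (SE, adjusted p = 8.35e-07).

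Of 15 genes for cuticlins and other parts of the apical matrix, 8 were tested. None was called between P-bodies and oocytes, and noah-1 alone was called lower in oocytes than in whole animals, at -1.71 ± 0.47 (SE, adjusted p = 0.0294), and lower in P-bodies than in whole animals at -1.72 ± 0.44 (SE, adjusted p = 0.0037), or 1.47 by library totals. Of 24 regulators of molting and cuticle, 19 were tested, and P-bodies had 7 higher and 1 lower than oocytes, against 26.7% and 28.8% of all genes. Against whole animals P-bodies had 6 higher and 6 lower, against 27.9% and 38.9% of all genes. The heterochronic gene lin-29, which drives the switch to the adult cuticle and overlaps hmg-12, was called higher in P-bodies than in oocytes, at 2.14 ± 0.80 (SE, adjusted p = 0.0376), from 109, 135 and 120 counts against 5, 0 and 4. The lipoprotein receptor gene lrp-1, needed for molting, was lower in oocytes than in whole animals, at -1.91 ± 0.31 (SE, adjusted p = 0.00469).

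Genes outside the family followed the summed col level across the 9 libraries. Among 4873 other genes with enough counts, the 5 most alike by Pearson's r were W01F3.2 (0.991), act-4 (0.989), unc-54 (0.989), unc-52 (0.988) and alh-9 (0.987). The muscle genes among them were the actin gene act-4, the myosin gene unc-54 and unc-52, which encodes perlecan. They were at 50.9, 78.5 and 6.05 CPM in oocyte library 1. In oocyte library 2 they were at 23.2, 22.1 and 2.19 CPM, and in library 3 at 24.2, 23.4 and 2.23 CPM. Each was thus lower in library 2 than in library 3, against the order of the col sum. W01F3.2 and alh-9 were higher in library 2 than in library 3, as the col sum was. The likeness is a description over 3 groups of 3 libraries.

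The members are short genes with few exons. Their median protein length was 304 residues, with quartiles at 294 and 328, and their median number of exons was 2. They lie on all chromosomes, with 42 on chromosome IV, 31 on V, 28 on X, 24 on II, 22 on I and 12 on III, and 50 lie within 10000 bp of another member. None of the 22 members on chromosome I reached 10 counts in every whole-animal library or every oocyte library, and 3 did so in every P-body library. On chromosome V it was 9 of 31 in whole animals, 4 in oocytes and 5 in P-bodies, and on chromosome X it was 7 of 28, 4 and 5. Overlap with another protein-coding gene was found for 55 members, 25 of them among those tested, and reads of the pair cannot be told apart without the strand setting of the counting, which is not given in the sources used here.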

How the data were processed

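RNA was measured in 9 libraries, 3 each of sorted oocyte P-bodies, dissected oocytes and whole animals, prepared from total RNA with a stranded low-input kit. The authors deposited raw counts per gene and a StringTie table with TPM, FPKM and mean coverage per base for each library, per the file headers; FPKM and coverage entered no test. Reads were aligned with HISAT2 2.1.0 to WBcel235, per the submitters' processing notes, which also name StringTie, HTSeq and DESeq2. Ensembl release 115 of WBcel235 gave the annotation for 46603 of 46778 identifiers.

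The counts were tested with edgeR 4.0.16 (R 4.3.3; quasi-likelihood test, TMM factors, filterByExpr with a minimum count of 10, all 9 libraries in 1 fit) and Benjamini-Hochberg adjustment. The scripts were tested on simulated data in which few genes changed, as many up as down. That test does not bear on the choice of scaling. Alternatives used DESeq2 1.42.0, limma 3.58.1 on log2(TPM + pseudocount), other scalings and filters, a replicate block and left-out libraries. Standard errors are the log2 difference over the square root of F. Single genes are named by a rule on level, size of change and preset names. Members and lists were chosen with earlier results of these data known. No gene sequence was used.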

Additional observations from a re-analysis of the deposited data

How the results depend on the processing

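The labels do not say that a replicate number pairs libraries, and the data did not show it for every comparison: deviations of same-numbered libraries correlated at 0.137, 0.0997 and 0.104 for P-bodies with oocytes, each library correlating best with its own number, but at -0.00643, -0.0415 and 0.142 for P-bodies with whole animals and at -0.113, -0.096 and 0.090 for oocytes with whole animals. With the replicate number as a block, 26 col genes were called for oocytes against whole animals in place of 12 and 49 for P-bodies against whole animals in place of 41, all lower. Of all 10162 genes, 1153 and 3855 were called lower in these comparisons with the block. For P-bodies against oocytes 18 col genes were called lower and 3 higher, 21 in place of 18 lower, where 2700 and 2654 of all genes were.

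For P-bodies against oocytes the direction changed with the scaling. The count of called col genes, 18 of 57, became 11 by library totals, 7 with log2(TPM + 1) and 8 with log2(TPM + 0.1). It became 1 of 26 among genes with a mean TPM of at least 1. All of these were higher in P-bodies. Of all 10162 genes, 8093, 7987 and 7969 were called higher in the first 3 settings, and 6768 of 7792 in the next. The count was 11 of 39 with only those groups in the fit and 6 of 52 without both libraries numbered 1, all lower. There, 2477 of 9545 and 2404 of 10367 genes were called lower. With single libraries left out the count ran from 5 to 28, and that of all genes called from 4746 to 5803. The median, -1.70, became 0.78, 0.26, 0.77 and 0.25 under the first 4 of these settings and -0.18 without a filter, and ran from -2.14 to -0.71 with single libraries left out. By library totals col-106 (0.09), col-101 (0.73), col-158 (0.93), col-160 (0.44) and col-42 (0.14) changed sign. With log2(TPM + 1), log2(TPM + 0.1) and a mean TPM of at least 1 the sign changed for col-106 (0.21, 0.22, 0.21), col-101 (0.73, 0.77, 0.73), col-181 (0.20, 0.22, 0.20), col-184 (0.02, 0.03, 0.02), col-119 (0.19, 0.24, 0.19), col-140 (0.25, 0.34, 0.25), col-158 (0.35, 0.70, 0.35), col-160 (0.29, 0.53, 0.29) and col-178 (0.10, 0.21, 0.10).

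For oocytes against whole animals the called col genes were 29 by library totals, 31 with DESeq2, and 26 and 29 with log2(TPM + 1) and log2(TPM + 0.1). Of the 29 by library totals, 28 were lower and 1 higher. They were 29 of 149 without a filter and 7 of 24 with a stricter filter. They were 1 of 52 without both libraries numbered 1, and 3 to 26 with single libraries left out. All genes called, 1344 of 10162, became 6481 by library totals, 1919 with DESeq2, and 5606 and 5706 on the TPM scales. Of these, 1203, 1540, 1404 and 1391 were lower in oocytes. All genes called were 1918 of 19522 without a filter, 715 of 7605 with the stricter filter and 4914 of 7792 with a mean TPM of at least 1. They were 678 of 10367 without both libraries numbered 1 and 888 to 1535 with single libraries left out. The median became -0.98 with log2(TPM + 1), and ran from -3.72 to -2.21 with single libraries left out. For P-bodies against whole animals the called col genes were 27 of 57 by library totals, 19 lower and 8 higher, and 83 of 149 without a filter, all lower. They were 23 of 24 with the stricter filter, all lower, and 21 of 26 with a mean TPM of at least 1, 20 lower and 1 higher. Without a filter 5316 of 19522 genes were called lower, with the stricter filter 2903 of 7605, and with a mean TPM of at least 1 671 of 7792. In the last of these settings 6691 of 7792 genes were called higher. Without both libraries numbered 1, 32 of 52 col genes were called, all lower, where 3446 of 10367 genes were. With single libraries left out 32 to 56 col genes were called, and 6315 to 7400 of all genes. The median became -1.43 by library totals, -0.61 and -1.64 on the TPM scales and -1.79 with a mean TPM of at least 1. The difference of col-99 became 3.01 by library totals and 0.82 and 2.04 on the TPM scales.

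Calls of all genes split as 2715 higher and 2925 lower for P-bodies against oocytes, or 8093 and 340 by library totals, as 72 and 1272 for oocytes against whole animals, or 5278 and 1203, and as 2840 and 3950 for P-bodies against whole animals, or 7781 and 989. With a minimum of 1 count, 60, 37 and 70 members were measured in P-bodies, oocytes and whole animals, and after thinning 11 in P-bodies. With single libraries left out the members at 10 counts in every library, 30, 20 and 32 in the same order, ran from 31 to 40, from 20 to 23 and from 32 to 41, and the shares of protein-coding counts from 0.0175% to 0.0258%, from 0.0494% to 0.145% and from 0.532% to 0.629%. Of all counts, whole animals' share was 0.043%. The cause of these shifts was not tested. The setting without both libraries numbered 1 was added after seeing the data.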
